A study of Mus musculus with 8 samples.

Results

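The 8 genes described here encode secreted mediators through which regulatory T cells suppress immune responses or aid tissue repair: Il10, Tgfb1, Ebi3, Il12a, Fgl2, Areg, Penk and Metrnl. They were chosen by role, by matching these 8 symbols to the gene names of the deposited count table, and all 8 have a row among its 24421 genes. The table holds mRNA counts of TFR cells, the regulatory T cells of B cell follicles, from mouse spleen, with 4 libraries labelled wild type (WT) and 4 labelled Blimp1-flox Foxp3-cre, called Blimp1-flox here. Mice of both groups had received oral peanut together with cholera toxin on 2 occasions, and spleens were taken 36 days later. After enrichment of CD4+ T cells with a kit, the sort gate was Foxp3-YFP+, CXCR5+ and PD1+. In Blimp1-flox mice the Foxp3 gene drives Cre, so the floxed gene Prdm1, which encodes the transcriptional regulator Blimp1, is a target in every Foxp3-expressing cell and not in TFR cells alone. The labels do not give the age of the mice, the Cre status of WT mice and the number of floxed alleles. They also do not tie each library to a mouse of its own, so p-values measure the spread between these libraries, which may in part be technical.

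Regulatory T cells act on other cells partly through secreted proteins. IL-10 (Il10) signals through a receptor of IL10RA and IL10RB chains to STAT3 and restrains antigen-presenting cells and effector T cells, and in T cells Blimp1 is a known contributor to Il10 transcription. TGF-beta1 (Tgfb1) is secreted in a latent form that the receptor GARP (Lrrc32) holds on the cell surface and that integrins release. Ebi3 and Il12a encode the chains of IL-35, Fgl2 a fibrinogen-like protein that binds inhibitory Fc receptors, Areg the EGF receptor ligand amphiregulin, Penk the precursor of the enkephalins, and Metrnl the secreted protein meteorin-like.

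Library totals ranged from 16425538 to 27595939 counts. Levels are given as CPM, the count scaled to a common library size with TMM factors, and levels of different genes are compared only as CPM per kb of the deposited exon length. Sorted cells of both groups carried the transcripts of the gate. Cxcr5 was at 391 to 568 CPM and Pdcd1 at 774 to 1477 CPM over the 8 libraries. Of the CD8 and NK cell list, Cd8a did not exceed 0.351 CPM, but Cd8b1 was at 10.4 to 17.9 CPM. Klrb1c, of the same list, was at 13.5 to 26.6 CPM in WT and 30.7 to 37.4 CPM in Blimp1-flox. Its groups did not overlap, but Klrb1c was not called (log2 fold change 0.69, edgeR adjusted p = 0.1135). Foxp3 was at 72.5 to 105 CPM in WT and at 55.7 to 75.5 CPM in Blimp1-flox, a difference that was not called (log2 fold change -0.40, edgeR adjusted p = 0.176). A pair of libraries stood apart on principal components of log2 CPM, WT 4 at -51.8 on the first and Blimp1-flox 3 at -50.8 on the second. WT 4 was also the library with the most B cell RNA. The 12 genes of the B cell list summed to 238, 279, 367 and 862 CPM in WT 1 to WT 4 and to 207 to 277 CPM in Blimp1-flox. All 12 had counts, 11 were highest in WT 4, and Cd22 alone made up 206 ± 27.4 CPM in WT and 209 ± 33.2 CPM in Blimp1-flox (SD, n = 4). Prdm1 itself was at 31.8 to 71.0 CPM in WT and at 7.53 to 16.6 CPM in Blimp1-flox libraries, with every library on the side its label gives.

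Promoter windows were read from RefSeq (build GRCm38.p6) for the members it lists, which are Tgfb1, Ebi3, Il12a, Fgl2, Areg and Metrnl. Each window holds the 250 bases before a gene's start and the first 50 after it, and Il12a has 2 of the 7 windows. They were searched on both strands for GNGAAAG (the core of the Blimp1 motif), TGCTGA (the core of sites for the regulator Maf), TGANTCA (AP-1) and TTCNNNGAA (STAT). Windows are shown, without their last 50 bases, for 3 members whose transcripts were lower in every Blimp1-flox library than in every WT library. Those of Fgl2 and Areg hold matches, and that of Tgfb1 holds none. Capitals mark the matches, and all 3 genes lie on the plus strand.
Fgl2 chr5:21372423-21372672: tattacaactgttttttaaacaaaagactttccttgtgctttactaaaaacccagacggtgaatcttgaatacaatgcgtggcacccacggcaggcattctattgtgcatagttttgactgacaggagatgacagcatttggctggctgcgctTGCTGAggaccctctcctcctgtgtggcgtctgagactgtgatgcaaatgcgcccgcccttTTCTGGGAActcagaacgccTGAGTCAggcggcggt
Areg chr5:91139349-91139598: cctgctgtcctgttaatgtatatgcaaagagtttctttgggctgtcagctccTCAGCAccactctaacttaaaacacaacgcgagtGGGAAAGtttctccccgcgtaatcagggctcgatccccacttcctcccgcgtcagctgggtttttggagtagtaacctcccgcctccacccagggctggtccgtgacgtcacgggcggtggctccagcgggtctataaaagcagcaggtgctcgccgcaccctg
Tgfb1 chr7:25686752-25687001: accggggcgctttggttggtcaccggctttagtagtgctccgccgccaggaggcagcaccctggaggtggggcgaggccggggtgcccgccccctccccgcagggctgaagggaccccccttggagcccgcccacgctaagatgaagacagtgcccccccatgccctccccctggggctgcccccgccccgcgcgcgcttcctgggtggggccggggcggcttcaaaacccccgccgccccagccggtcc

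The Fgl2 window held a Maf core from 97 bases before the start, a STAT match from 36 bases before it and an AP-1 match from 16 bases before it, none of which overlaps another. The Areg window held a Blimp1 core from 164 bases before the start and a Maf core on the minus strand from 198 bases before it. Such matches are common. Of all 32851 windows, 22.6% held a Blimp1 core, 19.5% a Maf core, 7.81% an AP-1 match and 8.30% a STAT match. Of the 7 windows of members, 4 held a Blimp1 core, in Areg, Ebi3, Metrnl and Il12a. The levels of Ebi3, Metrnl and Il12a overlapped between the groups. The Tgfb1 stretch, of which 75.2% of bases are G or C, held none of the 4 motifs, which says only that these letters are absent from it.

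Il10 was the member with the clearest difference between the genotypes. The 4 WT libraries held 68.8, 70.5, 63.6 and 98.6 CPM of Il10, and the 4 Blimp1-flox libraries 7.42, 10.6, 17.9 and 6.43 CPM. The groups did not overlap: the highest Blimp1-flox library, Blimp1-flox 3, lay well under the lowest WT library, WT 3. These levels rest on 1448 to 2643 counts a library in WT and 122 to 497 counts in Blimp1-flox. Il10 fell by 2.82 ± 0.31 (SE) on the log2 scale, with a 95% interval from -3.51 to -2.13, in the quasi-likelihood test of edgeR over all genes (adjusted p = 0.00502). The same test called 0.501% of the 12363 genes tested, 0.243% of them lower. In cells sorted in bulk, fewer cells that transcribe Il10 and less Il10 RNA per cell cannot be told apart. The gene lies on chromosome 1 from 131019845 to 131024970 in mm10 on the plus strand, and no exon of another gene in the table overlaps its 5 exons.

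**Figure D1:**
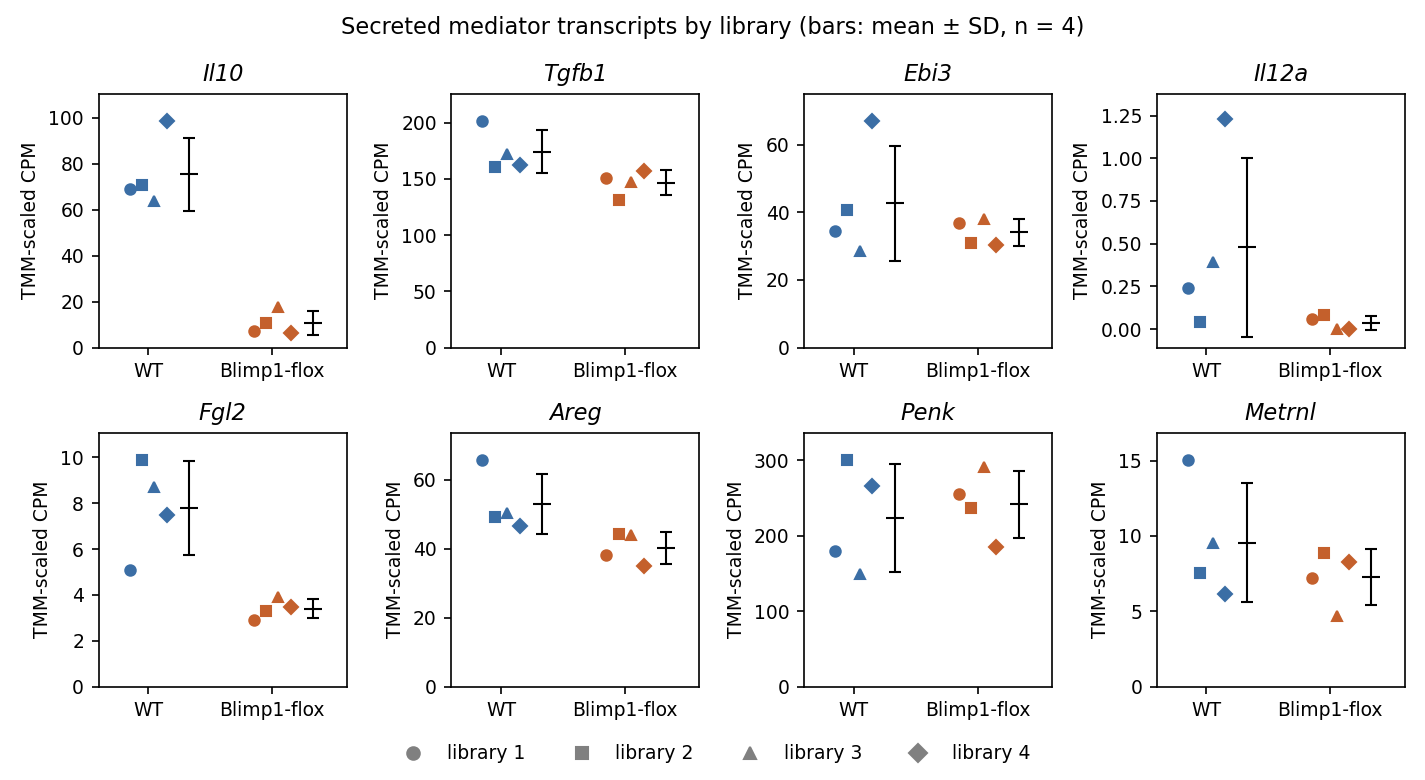
Levels of the 8 mediator transcripts in each library (TMM-scaled CPM, linear axes, a separate scale per gene; marker shape gives the library number, bars the mean ± SD of 4 libraries). Il10 separates into 63.6 to 98.6 CPM in WT and 6.43 to 17.9 CPM in Blimp1-flox, while Penk, Ebi3 and Metrnl overlap between the groups.

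The fall of Il10 kept its call in each of 17 alternative fits, where its log2 fold change ran from -3.21 to -2.64 and its adjusted p from 4.5e-12 to 0.0352. B cells and plasma cells can also make IL-10, and the library with the most B cell RNA, WT 4, had the highest Il10 level. Without WT 4 the log2 fold change was -2.66 (edgeR adjusted p = 0.00442), so the difference was nearly as large. Without Blimp1-flox 3, the Blimp1-flox library with the most Il10, it was -3.21 (edgeR adjusted p = 8.7e-05). Of 6 tested plasma cell markers 1 rose, Sdc1, which encodes the surface proteoglycan CD138, from 0.922 to 2.22 CPM in WT to 3.20 to 6.93 CPM in Blimp1-flox (log2 fold change 1.87, edgeR adjusted p = 0.0334). Jchain, the joining chain of secreted antibodies, was at 13.6 to 26.2 CPM in WT and at 7.19 to 81.4 CPM in Blimp1-flox, and was not called. The part of plasma cell RNA in the Il10 levels was not tested.

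Remaining Il10 did not follow remaining Prdm1 over the Blimp1-flox libraries. Blimp1-flox 4 held the most Prdm1, 16.6 CPM, and the least Il10, 6.43 CPM. Blimp1-flox 3 held the most Il10, 17.9 CPM, with 9.60 CPM of Prdm1. With 4 libraries this is a description of their order and no test.

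Genes beside Il10 were examined to see whether the difference extended along the chromosome. Within 250 kb lie 11 other genes of the table, 7 of which were tested and none of which was called. The nearest, Mapkapk2, a stress kinase gene 28.7 kb away, was at 289 CPM in WT and 324 CPM in Blimp1-flox on average (log2 fold change 0.16, edgeR adjusted p = 0.460). The IL-10 family cytokine genes of the same cluster were almost silent: Il20 had no count in any library, Il19 had 1 count in all, and Il24 had 5 counts, all in WT. Fcmr, the IgM Fc receptor gene at -139 kb, was at 18.4 to 66.8 CPM in WT, highest in WT 4, and at 8.64 to 14.2 CPM in Blimp1-flox. Those groups did not overlap, but the Fcmr difference was not called (log2 fold change -1.58, edgeR adjusted p = 0.107). Pigr, the gene of the antibody transporter at -168 kb, also had all WT libraries, at 0.605 to 1.21 CPM, above all Blimp1-flox libraries, at 0.182 to 0.457 CPM, and was not called (log2 fold change -1.40, edgeR adjusted p = 0.184). Of all genes tested, 4.72% had all WT libraries above all Blimp1-flox libraries. Fcmr is a gene of B cells as well as T cells, and the part of B cell RNA in its values was not tested.

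Fgl2 (chr5:21372673-21378386 in mm10) was the tested member with the next largest difference. WT libraries held 5.09, 9.89, 8.69 and 7.50 CPM of Fgl2 and Blimp1-flox libraries 2.92, 3.28, 3.92 and 3.49 CPM. The groups did not overlap, although WT 1 lay close to the Blimp1-flox range. Fgl2 had a log2 fold change of -1.19 ± 0.24 (SE), with a 95% interval from -1.71 to -0.67, and it missed the threshold in the main test (edgeR adjusted p = 0.0521). Over 17 alternatives this value ran from -1.35 to -1.05, and its adjusted p from 6.5e-04 to 0.182, with 6 of them under the threshold. Among these were DESeq2 (adjusted p = 6.5e-04) and limma-voom with quality weights (adjusted p = 0.0155), which called 3.66% and 4.09% of all genes. Without WT 1 the edgeR adjusted p was 0.0235, and without WT 2 it was 0.157.

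Myeloid cells also express Fgl2, and none of their 10 tested markers was called. The 14 genes of the myeloid and dendritic cell list summed to 18.7 to 39.7 CPM in WT and to 5.97 to 93.6 CPM in Blimp1-flox. All 14 had counts. Of the 10 tested, 9 had a positive and 1 a negative log2 fold change, with a median of 0.42 against 0.0012 over all genes tested. Lyz2 was at 8.96 to 25.7 CPM in WT and at 0 to 42.6 CPM in Blimp1-flox. Csf1r was at 3.92 to 6.15 CPM in WT and at 2.59 to 8.40 CPM in Blimp1-flox. The part of myeloid RNA in the Fgl2 levels was not tested. The receptors of Fgl2 were at low levels. Fcgr2b, the inhibitory Fc gamma receptor found mainly on B cells and myeloid cells, was at 5.75 CPM in WT 4 and at 1.19 CPM or less in all other libraries. Neither Fcgr2b nor Fcgr3 was called.

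Tgfb1 (chr7:25687002-25704996) was abundant in both groups and differed little. WT libraries held 202, 160, 172 and 162 CPM of Tgfb1 and Blimp1-flox libraries 151, 132, 148 and 157 CPM. The groups did not overlap, but the lowest WT and the highest Blimp1-flox library were only 160 and 157 CPM. Tgfb1 had a log2 fold change of -0.25 ± 0.10 (SE), with a 95% interval from -0.46 to -0.03, and missed the threshold (edgeR adjusted p = 0.254). The interval leaves room for a level at most 1.38-fold lower in Blimp1-flox.

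Genes that present, activate and read TGF-beta were likewise not called. Of 18 genes on this list 16 were tested, 4 with a positive and 12 with a negative log2 fold change, with a median of -0.13 against 0.0012 over all genes tested. Lrrc32, which encodes the latent TGF-beta receptor GARP, was at 182 to 286 CPM in WT and at 135 to 247 CPM in Blimp1-flox. Itgb8, a chain of the integrin that activates latent TGF-beta, was at 26.9 to 38.1 CPM in WT and 24.9 to 36.3 CPM in Blimp1-flox. Both ranges overlapped widely. The protease gene Furin, which cleaves the precursor, was at 90.2 ± 15.5 CPM in WT and 104 ± 10.6 CPM in Blimp1-flox (SD, n = 4), a log2 fold change of 0.20. Smad3, which carries the receptor signal to the nucleus, was at 98.2 to 129 CPM in WT and at 71.3 to 91.6 CPM in Blimp1-flox, without overlap. Its log2 fold change of -0.50 missed the threshold (edgeR adjusted p = 0.0800) and passed it with DESeq2, limma-voom, a replicate block and without WT 1.

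The chains of IL-35, Ebi3 (chr17:55952623-55957022) and Il12a (chr3:68690644-68698550), were present at very different levels. WT libraries held 34.4, 40.7, 28.4 and 67.0 CPM of Ebi3 and Blimp1-flox libraries 36.9, 30.8, 38.1 and 30.3 CPM. WT 4 stood above all other libraries, and the rest overlapped. The log2 fold change of Ebi3 was -0.33 ± 0.23 (SE), with a 95% interval from -0.82 to 0.17 (edgeR adjusted p = 0.498). Without WT 4 it was -0.02 (edgeR adjusted p = 0.960). Activated B cells express Ebi3, and the part of B cell RNA in its WT 4 level was not tested. An antisense gene, Gm16712, shares 270 bases of Ebi3's exons, and with the strand setting of the counting unknown here, reads of the pair cannot be told apart.

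Il12a was near the limit of detection. Its counts were 6, 1, 9 and 33 in WT and 1, 2, 0 and 0 in Blimp1-flox, too few for the filter on low counts, so it was the 1 member outside the main test. A count of 0 allows up to 0.128 CPM in Blimp1-flox 4 and 0.108 CPM in Blimp1-flox 3 (3 counts of the library). With no filter its log2 fold change was -3.63, with a 95% interval from -6.10 to -1.17, and was not called (edgeR adjusted p = 0.188). Pooled over libraries, the WT level was 15.4 times the Blimp1-flox level, with an exact 95% interval from 4.96 to 77.1 for counting error alone. Of the 49 WT counts 33 came from WT 4, and without that library the ratio was 6.92, with an interval from 1.98 to 37.1. Per kb of exon, Ebi3 exceeded Il12a 63.8-fold in WT 4, 84.4-fold in WT 3, 166-fold in WT 1 and 1106-fold in WT 2, where Il12a had a single count.

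Other partners and receptors of these chains were compared next. Il27, whose protein pairs with that of Ebi3 in IL-27, had 1 count in all 8 libraries, and Il12b, which encodes the shared chain of IL-12 and IL-23, had 7 in all, 6 of them in WT. None of the 6 tested genes of the list was called. Il6st, which encodes the signalling receptor gp130, ranged from 269.9 to 429.7 CPM in WT and from 207 to 323 CPM in Blimp1-flox. Il12rb2, the other chain of the IL-35 receptor in T cells, was scarce, with means of 1.56 ± 0.444 CPM and 0.842 ± 0.598 CPM (SD, n = 4) in the groups.

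**Figure D2:**
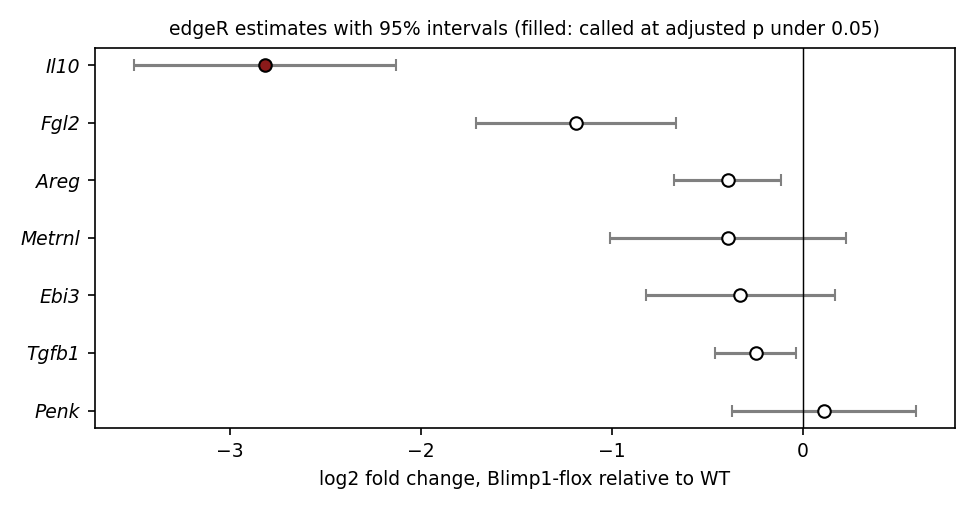
Log2 fold changes of the 7 tested mediator genes, Blimp1-flox relative to WT, with 95% intervals from the edgeR fit; a filled point passed an adjusted p of 0.05. Il10 lies at -2.82 and Fgl2 at -1.19, with the other 5 between -0.39 and 0.11.

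Areg (chr5:91139615-91148432) differed little and did not pass the test. WT libraries held 65.8, 49.2, 50.4 and 46.5 CPM of Areg and Blimp1-flox libraries 38.1, 44.2, 44.0 and 34.9 CPM. The groups did not overlap, with 46.5 CPM the lowest in WT and 44.2 CPM the highest in Blimp1-flox. For Areg the log2 fold change was -0.39 ± 0.13 (SE), with a 95% interval from -0.67 to -0.11 (edgeR adjusted p = 0.184). Limma-voom with quality weights called Areg (log2 fold change -0.47, adjusted p = 0.0416), and over 17 alternatives its adjusted p ran from 0.0416 to 0.488. Without WT 1, the library with the most Areg, the edgeR log2 fold change was -0.27.

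Amphiregulin is shed from the cell surface by the protease ADAM17. Adam17 was at 157 ± 5.89 CPM in WT and 155 ± 21.9 CPM in Blimp1-flox (SD, n = 4), with a log2 fold change of -0.02. The receptor of amphiregulin was all but undetected in these cells, with 11 counts of Egfr in all libraries, 9 of them in WT 1. None of the 7 tested genes of the amphiregulin list was called. Il18r1, a receptor chain for IL-18, was at 2.42 to 5.34 CPM in WT and at 7.01 to 13.1 CPM in Blimp1-flox, without overlap. Its log2 fold change of 1.31 missed the threshold (edgeR adjusted p = 0.0579) and passed it with no filter, DESeq2 and limma-voom, and without WT 4, Blimp1-flox 3 or both.

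Penk (chr4:4133536-4138445, minus strand) was the most abundant of the 8 transcripts and did not separate the genotypes. WT libraries held 179, 301, 149 and 267 CPM of Penk and Blimp1-flox libraries 255, 237, 291 and 185 CPM. All 4 Blimp1-flox values fell within the WT range. For Penk the log2 fold change was 0.11 ± 0.22 (SE; edgeR adjusted p = 0.841). Its 95% interval, from -0.37 to 0.59, leaves room for a rise of at most 1.51-fold or a fall of at most 1.29-fold. GENCODE M21 places exons of A830012C17Rik on 125 bases of Penk's exons, on the opposite strand.

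Of the tested genes for processing and sensing of enkephalins, 4 in all, Pcsk1 rose and 3 did not pass. Pcsk1, a prohormone convertase gene, was at 1.09, 0.735, 1.10 and 0.336 CPM in WT and at 7.18, 4.86, 6.29 and 7.46 CPM in Blimp1-flox. The groups were far apart, and Pcsk1 rose by 2.98 ± 0.36 (SE) on the log2 scale (edgeR adjusted p = 0.00254). It was called in all 17 alternative fits. Cpe encodes carboxypeptidase E, which trims the peptides that convertases release. WT libraries held 1.45, 1.30, 0.790 and 2.72 CPM of Cpe and Blimp1-flox libraries 7.91, 2.29, 5.43 and 10.9 CPM, so Blimp1-flox 2 lay within the WT range. Cpe had a log2 fold change of 2.07 ± 0.47 (SE) that missed the threshold (edgeR adjusted p = 0.0845), with 5 of 17 alternatives under it, and an adjusted p from 7.1e-04 to 0.294 over them. Without WT 4 the adjusted p of Cpe was 0.0436 and without Blimp1-flox 2 it was 0.0296. The convertase gene Pcsk2 and the dynorphin precursor gene Pdyn had no counts.

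Pcsk1 and Cpe are also genes of endocrine cells, and transcripts of the exocrine pancreas were present in these libraries. The 11 genes of the pancreas list summed to 33.1 to 64.8 CPM in WT and 51.7 to 94.0 CPM in Blimp1-flox, and all 11 had counts. Most of the sum was the elastase gene Cela1, at 27.5 to 34.3 CPM in WT and 39.7 to 67.3 CPM in Blimp1-flox, and Prss2, which encodes a trypsinogen, was at 1.19 to 6.35 CPM and 7.48 to 18.1 CPM. Neither was called. All 10 tested genes of the list leaned higher in Blimp1-flox, and none was called. Their median log2 fold change was 0.84, against 0.0012 over all genes tested. For acinar genes other than Cela1 and Prss2 the groups overlapped. The lipase gene Pnlip, for example, was at 4.67 CPM in WT 2. It was at 0 in WT 1, in WT 3 and in Blimp1-flox 4. In WT 1 and WT 3, where Pnlip was at 0, Cela1 was at 31.5 and 33.2 CPM, so the summed list does not measure pancreas RNA alone. The part of pancreas RNA in the levels of Pcsk1 and Cpe was not tested.

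Metrnl (chr11:121702427-121717389) was low and varied within both groups. WT libraries held 15.1, 7.52, 9.53 and 6.12 CPM of Metrnl and Blimp1-flox libraries 7.24, 8.90, 4.71 and 8.26 CPM. Only WT 1 and WT 3 exceeded all Blimp1-flox libraries. The log2 fold change was -0.39 ± 0.29 (SE), with a 95% interval from -1.01 to 0.23 (edgeR adjusted p = 0.519), and without WT 1 it was -0.09. Kit, whose protein meteorin-like has been described to bind, was at 0.485 to 1.73 CPM in WT and at 2.00 to 4.32 CPM in Blimp1-flox. Those ranges did not overlap, and the Kit difference was not called (log2 fold change 1.31, edgeR adjusted p = 0.176).

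Of the 8 genes, 7 passed the filter on low counts and were tested: 1 fell, none rose and 6 did not pass. Of all genes tested, 0.501% were called in either direction and 0.243% as lower. At an unadjusted p under 0.05 there were 4, Il10, Tgfb1, Fgl2 and Areg, against 16.2% of all genes tested, and the same 4 had all WT libraries above all Blimp1-flox libraries, which held for 4.72% of all genes tested. The median log2 fold change of the 7 was -0.39, against 0.0012 over all genes. These figures describe a small set chosen by role with results of these data known, and they are no test of the set.

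Per kb of exon, the order of the transcripts in WT was Penk, Tgfb1, Il10, Areg, Ebi3, Metrnl, Fgl2 and Il12a. Penk stood at 159 ± 50.7 CPM per kb, Tgfb1 at 83.2 ± 9.16, Il10 at 57.7 ± 12.1, Areg at 44.2 ± 7.25 and Ebi3 at 36.4 ± 14.5 CPM per kb (SD, n = 4). Penk lay above Tgfb1 and Tgfb1 above Il10 in every WT library, whereas the ranges of Il10 and Areg, of Areg and Ebi3, and of Metrnl and Fgl2 overlapped. In Blimp1-flox Il10 ranked 5, at 8.10 ± 3.96 CPM per kb (SD, n = 4). There it lay below the ranges of Areg and Ebi3, at 33.6 ± 3.83 and 29.1 ± 3.45 CPM per kb (SD, n = 4), without overlap. The order of all other members was the same in both groups.

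The make-up of this set of transcripts shifted accordingly. Of the summed CPM per kb of the 8 transcripts, Il10 took 12.7 to 17.0% in WT libraries and 1.75 to 3.78% in Blimp1-flox libraries. Penk took 40.3 ± 7.61% and 53.9 ± 3.75% (SD, n = 4). With Il10 left out of the sum, the share of Penk ranged from 40.3 to 57.4% in WT and from 49.3 to 59.1% in Blimp1-flox, so the groups overlapped. Tgfb1 took 22.1 ± 5.02% of the full sum in WT and 22.5 ± 3.72% in Blimp1-flox (SD, n = 4).

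**Figure D3:**
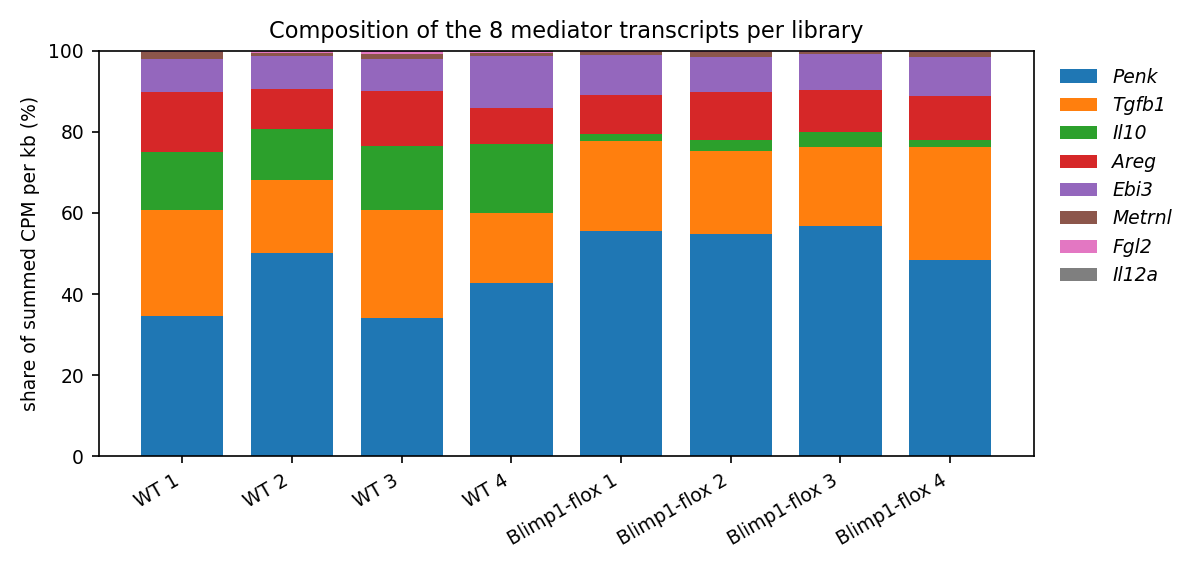
Share of each mediator transcript in the summed CPM per kb of the 8 transcripts, as stacked bars per library (in %, from 0 to 100). The Il10 band takes 12.7 to 17.0% in WT and 1.75 to 3.78% in Blimp1-flox.

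The receptor side of IL-10 and the factors known to act on the Il10 gene were compared from lists chosen by role. None of the 7 tested genes of IL-10 signalling was called, and all 7 had a negative log2 fold change, with a median of -0.13. Il10ra, the ligand-binding chain, was at 73.3, 96.8, 77.5 and 145 CPM in WT and at 69.1 to 76.9 CPM in Blimp1-flox, so only WT 2, WT 3 and WT 4 exceeded the Blimp1-flox range. Its log2 fold change was -0.45 (edgeR adjusted p = 0.262), and -0.20 without WT 4. Il10rb, the shared chain, was at 149 ± 15.2 CPM in WT and 140 ± 9.73 CPM in Blimp1-flox (SD, n = 4).

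Of 15 transcription factors that regulate Il10 in T cells, 1 was called, Prdm1, and it fell by 2.14 ± 0.31 (SE) on the log2 scale (edgeR adjusted p = 0.0203). Without Blimp1-flox 1 it was not called (adjusted p = 0.103), nor in the fit on unfiltered genes (adjusted p = 0.0502). The other 14 were not called, with 6 positive and 8 negative log2 fold changes. Maf, a direct activator of Il10 in many T cell subsets, was at 131 to 158 CPM in WT and 128 to 196 CPM in Blimp1-flox, 0.11 ± 0.12 (SE) in log2 fold change (edgeR adjusted p = 0.682).

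Other routes of suppression were set beside the secreted ones. Of 15 tested genes for contact-dependent or enzymatic suppression 2 fell, none rose and 13 did not pass. Entpd1, the ectonucleotidase CD39, was at 22.8 to 35.8 CPM in WT and 8.64 to 13.5 CPM in Blimp1-flox (log2 fold change -1.25, edgeR adjusted p = 0.00850). Il2ra, the alpha chain of the IL-2 receptor, was at 81.3 to 121 CPM in WT and 28.1 to 55.4 CPM in Blimp1-flox (log2 fold change -1.39, edgeR adjusted p = 0.0311). Leaving out WT 2, or 1, 2 or 4 of the Blimp1-flox libraries by number, ended the Il2ra call (adjusted p up to 0.105). Of 14 tested cytokine and chemokine genes of T cells outside the set none was called, with 5 positive and 9 negative log2 fold changes. Ifng, the effector cytokine interferon gamma, was at 14.1 to 32.8 CPM in WT, highest in WT 4, and at 9.18 to 9.96 CPM in Blimp1-flox (log2 fold change -1.09, edgeR adjusted p = 0.0633). It passed with no filter, DESeq2 and limma-voom, and without WT 1, WT 3, or both WT 4 and Blimp1-flox 3. Csf1, a growth factor of macrophages, was at 73.6 to 97.9 CPM in WT and at 107 to 130 CPM in Blimp1-flox (log2 fold change 0.46, edgeR adjusted p = 0.0869), and it passed with DESeq2 and limma-voom. Over the 10 lists 88 of 116 genes were tested, 3 fell, 1 rose and 84 did not pass, with a median of -0.11. The same test called 0.501% of all genes tested in either direction and 0.243% as lower.

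**Figure D4:**
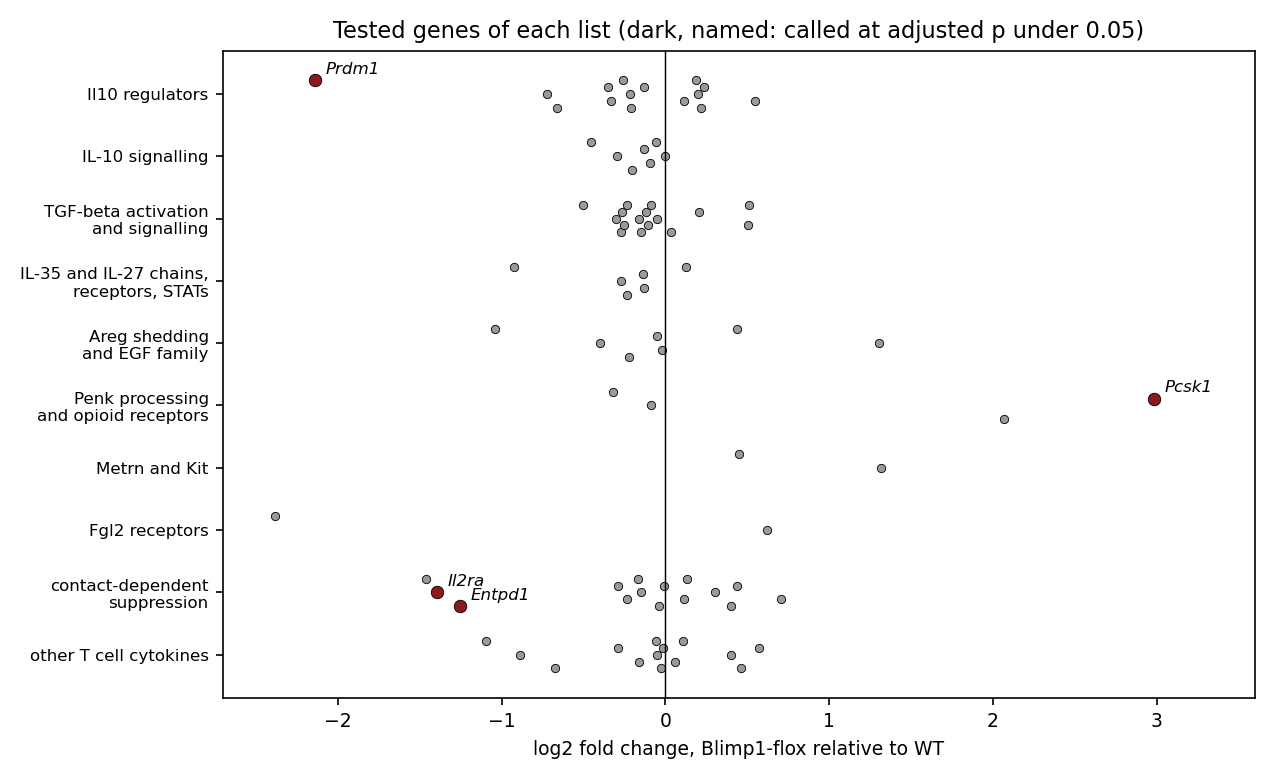
Log2 fold changes (Blimp1-flox relative to WT) of the tested genes of 10 lists set by role; each point is a gene, and dark named points passed an adjusted p of 0.05. Prdm1, Il2ra and Entpd1 lie on the negative side and Pcsk1 on the positive side, and the other 84 points did not pass.

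Genes whose level followed Il10 most closely over the 8 libraries were ranked among 11487 genes with a mean of at least 1 CPM. The measure was the root mean square difference between profiles of log2(CPM + 1), each relative to its own WT mean. The closest were Neb, at 0.73, Ceacam-ps1, at 0.83, and Prdm1 and Wdfy4, both at 0.87. All 4 had every WT library above every Blimp1-flox library, which the measure favours. Neb and Prdm1 were called as lower. Ceacam-ps1, a pseudogene, and Wdfy4 had log2 fold changes of -3.71 and -4.50 that were not called (edgeR adjusted p = 0.141 and 0.0580). In WT 4, the library with the most B cell RNA, Neb was at 45.7 CPM, against 14.3 to 16.5 CPM in the other WT libraries. Wdfy4 was at 10.1 CPM in WT 4, against 2.06 to 2.68 CPM. The part of B cell RNA in these profiles was not tested.

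**Figure D5:**
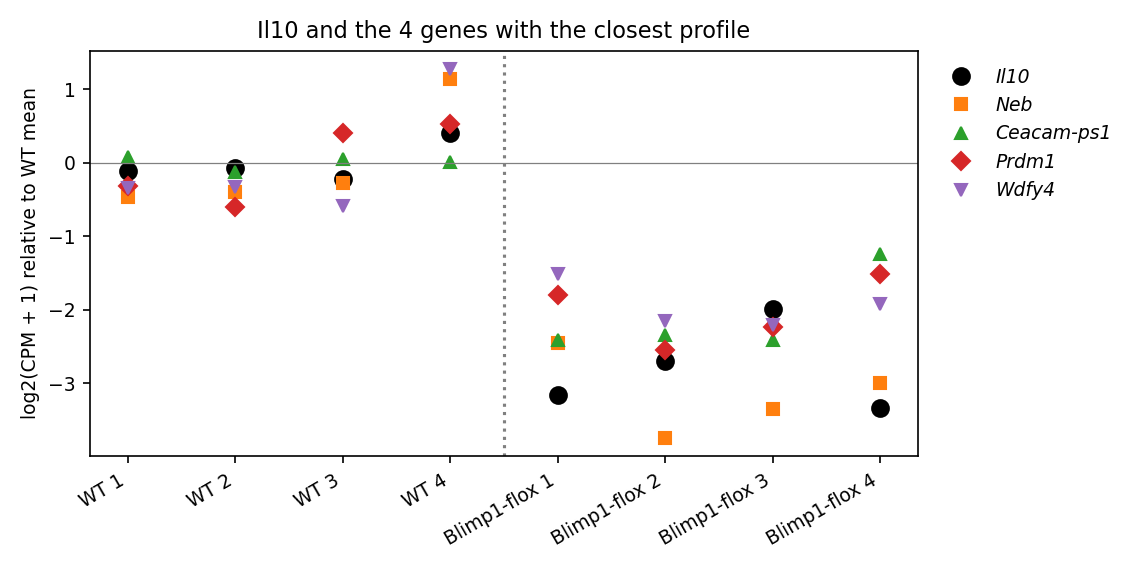
Profiles of Il10 (large black circles) and of the 4 genes closest to it, as log2(CPM + 1) relative to each gene's WT mean, for the 4 WT libraries (left of the dotted line) and the 4 Blimp1-flox libraries. Il10 lies between -0.22 and 0.40 in WT and reaches -3.34 in Blimp1-flox 4, its lowest library.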

How the data were processed

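Raw counts per gene, as deposited by the authors, were used without their own normalization. Per the submitters' processing notes, the tools were STAR 2.5.2b, featureCounts and Subread 1.5.1, with build mm10. The sources used here name no annotation or strand setting. The deposited table also gives another quantity, exon length in bases, used only for levels per kb. Genes were kept with filterByExpr of edgeR 4.0.16 (R 4.3.3), which left 12363, and scaled by TMM (factors 0.976 to 1.02). The main test was the robust quasi-likelihood F test with genotype alone, Benjamini-Hochberg adjusted over all genes tested, called under 0.05. Each SE is the log2 fold change over the root of F. The alternatives were other scalings and filters, DESeq2 1.42.0, limma-voom (limma 3.58.1), a replicate block and left-out libraries. Replicate libraries differed beyond sampling noise (lowest chi-square per degree of freedom 15.0 over 28 pairs). Intervals and floors from counts cover counting error only.

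The members and all gene lists were chosen with earlier results of these data known. Named are the 8 members, 15 genes of the lists whatever their result, called list genes, defining cell type markers and the 5 genes closest to Il10, of which 1 is not reported here. Other genes were named after their values were seen: the neighbours of Il10, Cd22, Kit, Fcgr2b, Fcgr3, Pcsk2, Pdyn, Gm16712, A830012C17Rik, Il22, Il17a, Il17f, Gzmb, Ltbp1, Smad3, Il18r1, Ifng, Csf1, Sdc1, Cela1 and Pnlip. Of the other marker lists, plasma cell genes summed to 287 to 357 CPM in WT and 274 to 380 CPM in Blimp1-flox. Most of that sum was Xbp1, at 204 to 296 CPM in WT and 207 to 254 CPM in Blimp1-flox. Stroma and endothelium genes summed to 121 to 172 CPM in WT and 122 to 167 CPM in Blimp1-flox. Most of that sum was Pecam1, at 117 to 168 CPM in WT and 118 to 164 CPM in Blimp1-flox. CD8 and NK genes summed to 37.3 to 50.3 CPM in WT and 49.8 to 54.2 CPM in Blimp1-flox. Klrb1c and Cd8b1 together made up most of that sum. Treg and TFR genes summed to 6366 to 7783 CPM in WT and 6501 to 7731 CPM in Blimp1-flox. Xbp1, Pecam1, Cd8b1 and Klrb1c were also named after their values were seen.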

Additional observations from a re-analysis of the deposited data

Results flagged for a closer look

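Of 56 groups of 4 libraries examined, 7 held 1 library far from the other 3. For values of a normal distribution chance gives about 1 in 20. A group with counts in only 1 library always meets the rule, so that rate does not hold for such groups. Neb was at 45.7 CPM in WT 4 against 14.3 to 16.5 CPM in the other WT libraries, and Wdfy4 at 10.1 CPM in WT 4 against 2.06 to 2.68 CPM. Ceacam-ps1 was at 1.24 CPM in Blimp1-flox 4 and at 0.0416 CPM or less in the other Blimp1-flox libraries. Furin was lowest in Blimp1-flox 3, at 88.1 CPM, against 107 to 110 CPM in the other Blimp1-flox libraries. The other 3 are single libraries with counts where the rest of the group had 0: Egfr at 0.363 CPM in WT 1, Il27 at 0.0426 CPM in Blimp1-flox 4 and Il12b at 0.0416 CPM in Blimp1-flox 2.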

How the results depend on the processing

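The main fit called 62 genes, and the count was 453 with DESeq2, 506 with limma-voom, 182 at an adjusted p under 0.1 and 157 without WT 4 and Blimp1-flox 3. With 1 library left out it ran from 20 to 127 (leaving out WT 1 gave 127, WT 2 gave 27, Blimp1-flox 1 gave 20, Blimp1-flox 3 gave 94 and Blimp1-flox 4 gave 23). Of the members 1 was called, Il10, and 2, with Fgl2, with no filter, with a stricter filter, with DESeq2, at an adjusted p under 0.1, without WT 1, and without WT 4 and Blimp1-flox 3. Limma-voom called 3, with Areg. Leaving out 1 library gave 1 to 2. Of the list genes 4 were called, and 13 with DESeq2, 14 with limma-voom, 9 at an adjusted p under 0.1, 7 without WT 4 and Blimp1-flox 3, and 2 to 7 with 1 library left out (7 without WT 1, 2 without Blimp1-flox 1). Same-numbered libraries share only a number (correlations of their deviations -0.107 to 0.153): with a replicate block 52 genes were called, 37 of them among the 62, and Il10 kept its call (log2 fold change -2.90, adjusted p = 0.0352). All 7 tested members kept their sign in 17 alternatives, except Penk, at -0.04 without WT 3. Depth limits Il12a alone among the members.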

Other observations

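Some other genes of the lists had too few counts for the main test and were named after their values were seen. Il22, a cytokine of the IL-10 family that acts on epithelium, had 9 counts in WT and 114 in Blimp1-flox, at 0 to 0.161 CPM in WT libraries and 0.333 to 2.39 CPM in Blimp1-flox libraries, and it was called in the edgeR fit with no filter. Il17a had 1 count in WT and 19 in Blimp1-flox, and Il17f had 0 and 19. Gzmb, the cytotoxic protease granzyme B, had 232 counts in WT and 4 in Blimp1-flox, at 6.79 CPM in WT 4 and 0.242 to 1.34 CPM in the other WT libraries, and among the fits it was called in the one without WT 1. Ltbp1, a binding protein of latent TGF-beta, had 24 counts in WT, none of them in WT 4, and 0 in Blimp1-flox.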
